A study of Oryza sativa with 48 samples.

Results

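Alternative oxidases of rice were followed through complete submergence of leaves. The genes were AOX1a (OS04G0600200), AOX1b (OS04G0600300) and AOX1c (OS02G0700400), 3 of the 37830 genes in a table of read counts, chosen by these identifiers and not by their values. The identifiers place AOX1a and AOX1b on chromosome 4 and AOX1c on chromosome 2. The count table gives no coordinates. AOX1a and AOX1c were among the 21453 genes with enough counts to be tested, and AOX1b was not.

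The plants were M202(Sub1) and M202, 2 rice genotypes, the first carrying Sub1, a locus known for submergence tolerance. They were kept in greenhouse pots and submerged completely for 0, 1, 3 or 6 days. From each plant group the elongating leaf (the 5th) and the lower, non-elongating leaves were taken as soon as the water was removed. This gave 16 groups of 3 libraries, or 48 in all: M202(Sub1) and M202, each with elongating and non-elongating leaves, each at 0, 1, 3 and 6 days. The day 0 libraries were the only ones not submerged, so the time under water and the age of the plant cannot be told apart. The submitters' design text gives 3 independent biological replicates in each group. The labels do not say whether replicates were separate plants or pools of plants, so p-values measure the spread between these samples.

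Alternative oxidase sits in the inner mitochondrial membrane. It takes electrons from ubiquinol and passes them straight to oxygen, bypassing the proton pumping of the cytochrome bc1 complex and cytochrome c oxidase. Electrons reach it from the usual dehydrogenases and from alternative NAD(P)H dehydrogenases, which do not pump protons either. In plants the pathway is known for limiting the leak of electrons to reactive oxygen. AOX1a and AOX1b lie in tandem in rice and are known from work on seedlings for a rise in the cold.

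The libraries held 4873142 to 10369501 counts, with a median of 6854259.5. Between 62.3% and 73.8% of the nonzero counts in a library were even numbers, and for AOX1a 41 of 43 were (95.3%). Where both ends of a read pair are counted singly, the fragments behind a count are fewer than the count, and an interval or bound that takes each count as independent is too tight. Such intervals and bounds are therefore also given with counts halved and rounded down in each library, an alternative added after seeing the data. They cover counting error only, and the bounds take the day 0 counts as exact. Replicates correlated at r = 0.960 to 0.981 across genes on the log2 scale, and the lowest values belonged to replicate 2 of M202 non-elongating leaves at day 6. All 4 leaf blade markers were detected, with summed levels of 2676 to 9964 CPM (read counts normalized to library size) in submerged libraries and 10931 to 25219 CPM in day 0 libraries. Root markers summed to 0 to 5.90 CPM in submerged libraries and 2.05 to 6.40 CPM in day 0 libraries, with 1 of 3 tested. Neither of the 2 shoot meristem markers was tested, and their sum was at most 0.559 CPM. The part of these marker differences in the results was not tested. These are whole leaves, so fewer cells of a type and less RNA per cell cannot be told apart.

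The 2 tested members were lower under water in most comparisons, and AOX1b was close to the limit of detection. AOX1a levels, in CPM scaled by TMM factors, ranged from 0 to 4.45 CPM (median 0.606) in the 36 submerged libraries and from 1.68 to 5.33 CPM (median 3.56) in the 12 day 0 libraries. AOX1c ranged from 0 to 3.70 CPM (median 0.973) in submerged libraries and from 0.420 to 13.4 CPM (median 5.99) in day 0 libraries. AOX1b had 8 counts in all 36 submerged libraries, of which 32 were at 0, and 27 counts in the 12 day 0 libraries, of which 6 were at 0. Levels are not per transcript length, so they are not compared between genes. The counts were few: 496 for AOX1a, 35 for AOX1b and 758 for AOX1c over all libraries. AOX1a passed the filter on low counts, at 1.46 CPM in at least 3 libraries, with 5 submerged and 12 day 0 libraries above it. AOX1c passed with 12 submerged and 11 day 0 libraries, so each would have passed on its submerged libraries alone.

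**Figure D1:**
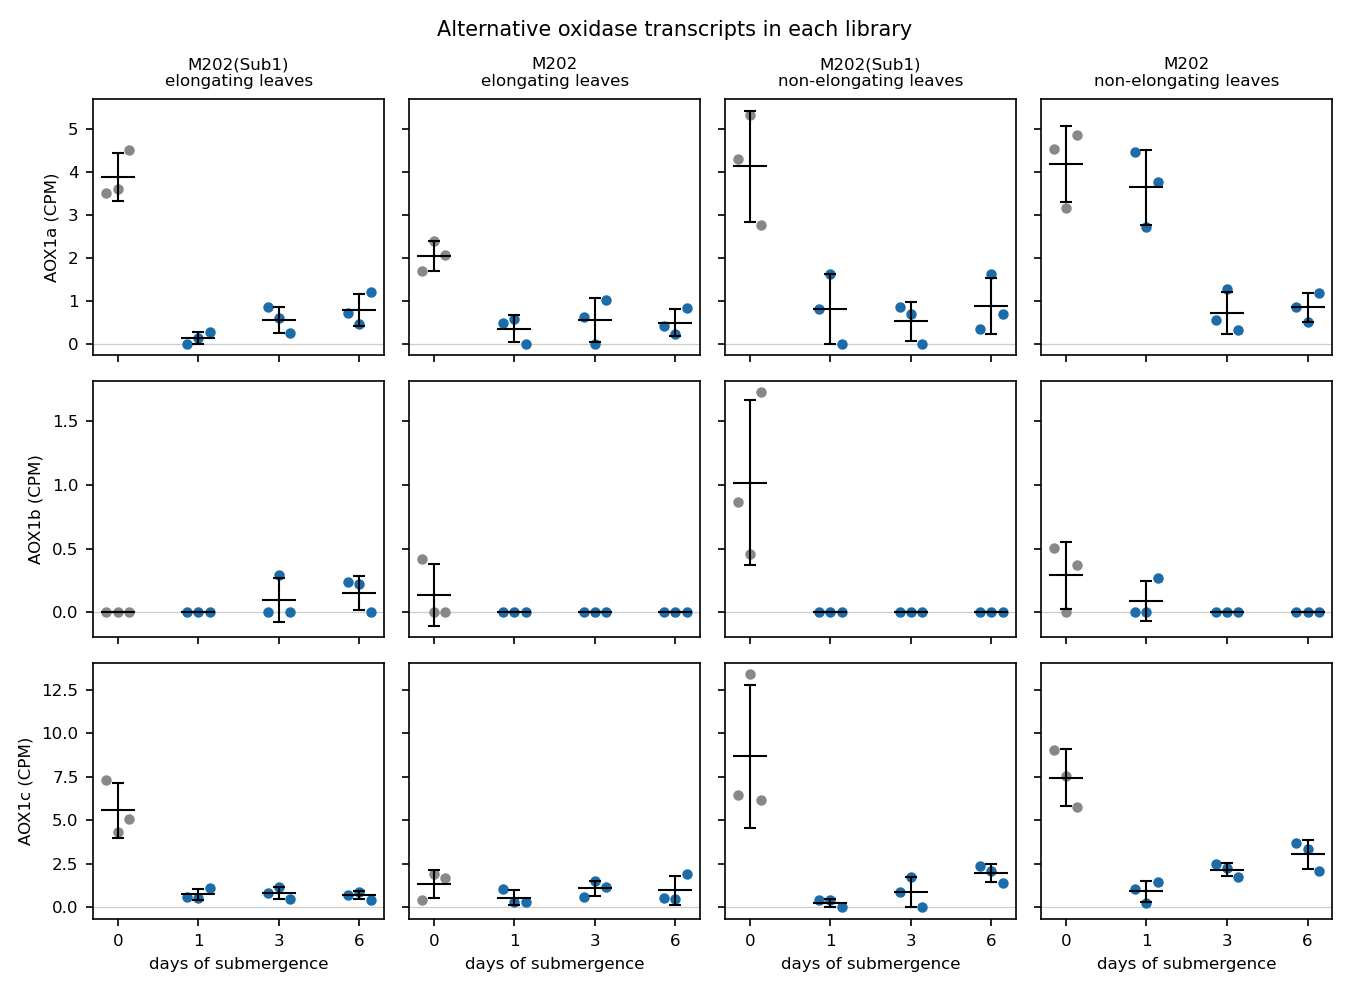
Levels of AOX1a, AOX1b and AOX1c in CPM (vertical axes) by day of submergence (horizontal axes), 1 column for each genotype and leaf type; points are single libraries (grey at day 0, blue under water), and lines and bars are the mean and SD of 3. The AOX1a points of M202 non-elongating leaves stay between 2.71 and 4.45 CPM at day 1, while the other 3 leaf and genotype combinations are at or below 1.63 CPM.

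AOX1a is the member best known in plants for answering stress of the mitochondrion. In elongating leaves of M202(Sub1) its level was 3.51, 3.61 and 4.51 CPM at day 0, 0, 0.129 and 0.278 CPM at day 1, 0.843, 0.593 and 0.238 CPM at day 3, and 0.711, 0.449 and 1.19 CPM at day 6. Every submerged library was below every day 0 library. M202 elongating leaves had 1.68, 2.38 and 2.05 CPM at day 0, 0.473, 0.576 and 0 CPM at day 1, 0.619, 0 and 1.01 CPM at day 3, and 0.407, 0.230 and 0.830 CPM at day 6. Here too the submerged and day 0 libraries did not overlap.

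In non-elongating leaves of M202(Sub1), AOX1a was 4.30, 5.33 and 2.75 CPM at day 0, 0.797, 1.63 and 0 CPM at day 1, 0.853, 0.696 and 0 CPM at day 3, and 0.341, 1.61 and 0.693 CPM at day 6. M202 non-elongating leaves had 4.52, 3.17 and 4.85 CPM at day 0, 4.45, 2.71 and 3.75 CPM at day 1, 0.548, 1.27 and 0.319 CPM at day 3, and 0.845, 0.497 and 1.18 CPM at day 6. These were the only leaves in which the day 1 and day 0 libraries overlapped. The low values came at day 3.

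By edgeR's quasi-likelihood test on all 16 groups, with Benjamini-Hochberg adjustment over all tested genes at 0.05, AOX1a fell in 11 of 12 comparisons of a submerged group with its day 0 group. In elongating leaves of M202(Sub1) the log2 change was -4.54 ± 0.83 (SE; adjusted p = 5.29e-06) at day 1, -2.79 ± 0.67 (adjusted p = 0.000349) at day 3 and -2.32 ± 0.63 (adjusted p = 0.00152) at day 6. The day 1 libraries held 3 counts between them, and the day 0 libraries 80, a ratio of 0.0389 with an exact 95% interval of 0.00785 to 0.118. Halved, the counts were 1 and 40, and the ratio 0.0259 with an interval of 0.00064 to 0.153. For M202 elongating leaves the log2 change was -2.45 ± 0.75 (adjusted p = 0.00486), -1.88 ± 0.73 (adjusted p = 0.0272) and -2.08 ± 0.70 (adjusted p = 0.0107) at days 1, 3 and 6. The last 2 calls rest on single libraries: at day 3 the adjusted p was 0.0719 without replicate 2 of day 0, 0.0517 without replicate 1 of day 3 and 0.145 without replicate 2 of day 3, and at day 6 it was 0.0558 without replicate 2 of day 6.

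In non-elongating leaves of M202(Sub1) the AOX1a log2 change was -2.36 ± 0.67 (adjusted p = 0.00219), -2.90 ± 0.69 (adjusted p = 0.000311) and -2.19 ± 0.64 (adjusted p = 0.00323) at days 1, 3 and 6. In non-elongating leaves of M202 it was -0.20 ± 0.54 (adjusted p = 0.787) at day 1, with a 95% interval of -1.26 to 0.87, so a fall of the size seen at day 3 lies outside it. At days 3 and 6 it was -2.48 ± 0.64 (adjusted p = 0.00093) and -2.31 ± 0.62 (adjusted p = 0.00143). The step from day 1 to day 3 in these leaves was itself called, at -2.28 ± 0.64 (adjusted p = 0.00818), though not without replicate 3 of day 3 (log2 change -1.96, adjusted p = 0.0559).

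AOX1c is a further gene for the same enzyme, apart from the tandem pair. Its level in elongating leaves of M202(Sub1) was 7.34, 4.30 and 5.08 CPM at day 0, 0.611, 0.516 and 1.11 CPM at day 1, 0.843, 1.19 and 0.475 CPM at day 3, and 0.711, 0.898 and 0.448 CPM at day 6. The level in elongating leaves of M202 was 0.420, 1.93 and 1.71 CPM at day 0, 1.06, 0.288 and 0.310 CPM at day 1, 0.619, 1.49 and 1.18 CPM at day 3, and 0.509, 0.461 and 1.94 CPM at day 6. The submerged libraries lay below day 0 in M202(Sub1) and overlapped with day 0 in M202, where replicate 1 of day 0 was as low as the submerged libraries.

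In non-elongating leaves of M202(Sub1), AOX1c was 6.45, 13.4 and 6.19 CPM at day 0, 0.398, 0.408 and 0 CPM at day 1, 0.853, 1.74 and 0 CPM at day 3, and 2.39, 2.09 and 1.39 CPM at day 6. M202 non-elongating leaves had 9.05, 7.57 and 5.78 CPM at day 0, 1.05, 0.271 and 1.47 CPM at day 1, 2.47, 2.29 and 1.76 CPM at day 3, and 3.70, 3.36 and 2.07 CPM at day 6. No submerged library of either genotype reached its day 0 libraries in these leaves.

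AOX1c fell in 9 of 12 submergence comparisons by the same edgeR test. The log2 change in elongating leaves of M202(Sub1) was -2.85 (95% interval -3.97 to -1.73, adjusted p = 2.69e-05) at day 1, -2.74 (-3.83 to -1.65, adjusted p = 3.39e-05) at day 3 and -2.96 (-4.05 to -1.86, adjusted p = 1.09e-05) at day 6. In elongating leaves of M202 it was -1.25 (-2.57 to 0.07, adjusted p = 0.115), -0.36 (-1.60 to 0.87, adjusted p = 0.666) and -0.60 (-1.81 to 0.61, adjusted p = 0.432), none of them called. The day 1 value there passed the threshold without replicate 1 of day 0 (log2 change -1.63, adjusted p = 0.0460) or without replicate 1 of day 1 (-2.19, adjusted p = 0.0333).

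For non-elongating leaves of M202(Sub1) the AOX1c log2 change was -4.96 (-6.33 to -3.60, adjusted p = 1.72e-08) at day 1, -3.29 (-4.38 to -2.20, adjusted p = 1.34e-06) at day 3 and -2.14 (-3.12 to -1.16, adjusted p = 0.000282) at day 6. In M202 it was -2.98 (-4.04 to -1.93, adjusted p = 4.55e-06), -1.77 (-2.73 to -0.82, adjusted p = 0.00183) and -1.28 (-2.20 to -0.37, adjusted p = 0.0174). The fold below day 0 was smaller at day 6 than at day 1 in both genotypes. Day 6 was not tested against day 1. By edgeR no step from day 1 to 3 or from day 3 to 6 was called for AOX1c (0 of 8, with 1 at an unadjusted p under 0.05). The day 6 call in M202 was lost without replicate 1 of day 0 (adjusted p = 0.0794) or without replicate 3 of day 6 (adjusted p = 0.0852).

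**Figure D2:**
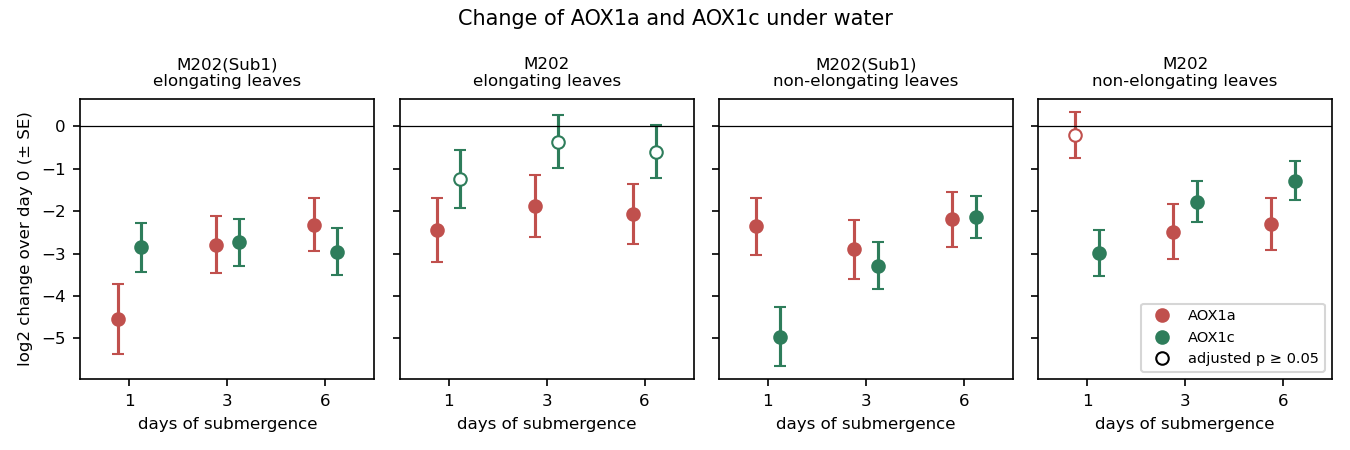
Log2 change of AOX1a and AOX1c from day 0 (vertical axis, bars ± SE) at days 1, 3 and 6 of submergence, by genotype and leaf type; filled points had an adjusted p under 0.05. All 24 point estimates are below 0, with AOX1a in M202 non-elongating leaves at day 1 (-0.20) and AOX1c in M202 elongating leaves among the 4 that did not pass.

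A fall under water was common among all tested genes, so each call is read against the share of genes that fell in that comparison. In elongating leaves of M202(Sub1) 27.3%, 25.3% and 25.9% of genes fell at days 1, 3 and 6, and in elongating leaves of M202 26.2%, 23.7% and 25.6%. In non-elongating leaves the shares were 28.7%, 25.5% and 25% in M202(Sub1) and 26.2%, 24.9% and 26.6% in M202. Comparisons within a genotype and leaf type share their day 0 libraries, so they are not independent. The share of genes that fell in as many comparisons as a member or a listed gene was not computed. The libraries of the submerged and day 0 groups did not overlap in the same 11 comparisons for AOX1a and 9 for AOX1c that were called. The share of all tested genes without overlap was not computed, so these counts add no support to the calls.

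AOX1b, the tandem neighbour of AOX1a, was counted mainly in non-elongating leaves at day 0. There it had 6, 3 and 10 counts in M202(Sub1) and 4, 0 and 2 counts in M202. In M202(Sub1) these leaves had no AOX1b count at any later day. Its level there was at least 5.03-fold lower at day 1, 5.98-fold lower at day 3 and 5.84-fold lower at day 6. These bounds take the day 0 counts as exact, with 3 counts over each submerged group as the floor. With counts halved to 9 at day 0, the bounds were 2.38-fold, 2.83-fold and 2.77-fold at days 1, 3 and 6. Non-elongating leaves of M202 had 0, 0 and 2 counts at day 1, a ratio of 0.282 (exact 95% interval 0.0278 to 1.58). They had none at days 3 and 6, a level at least 2.25-fold and 2.55-fold lower, with the day 0 counts again taken as exact. With no filter on low counts edgeR called neither day (adjusted p = 0.120 and 0.101). Halved, the interval at day 1 was 0.00537 to 3.51, and the 3 counts left at day 0 gave no bound.

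Elongating leaves of M202(Sub1) had no AOX1b count at days 0 and 1, then 0, 2 and 0 counts at day 3 and 2, 2 and 0 counts at day 6. Elongating leaves of M202 had 2, 0 and 0 counts at day 0 and none afterwards. At this depth nothing can be said of a change in elongating leaves. With no filter on low counts (30400 genes) edgeR called AOX1b lower under water in non-elongating leaves of M202(Sub1) at day 1 (adjusted p = 0.0292), day 3 (0.0246) and day 6 (0.0259), 3 of its 12 submergence comparisons. Without the filter 20%, 17.3% and 17.1% of genes were called lower in these leaves at days 1, 3 and 6, and 18%, 17% and 18.3% in non-elongating leaves of M202. The shares in elongating leaves were 19.1%, 17.6% and 18.1% in M202(Sub1) and 17.6%, 15.9% and 17.3% in M202. Of its 48 comparisons in all, 5 were called. The other 2 were in M202(Sub1). At day 0 the level was lower in elongating than in non-elongating leaves, with 0 against 19 counts (edgeR adjusted p = 0.0358, 19.2% of genes called). At day 6 the change from day 0 was more positive in elongating than in non-elongating leaves (edgeR adjusted p = 0.0438, 8.83% called). Elongating leaves had 4 counts at day 6 against 0 at day 0, and non-elongating leaves 0 against 19. Each leaf type had a group at 0 counts, so no fold is given and no change in elongating leaves is shown. None of these 5 tests was repeated on halved counts.

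Between the genotypes, each tested member differed in 1 of 8 comparisons at a matched leaf type and day. AOX1c was higher in elongating leaves of M202(Sub1) at day 0, with 7.34, 4.30 and 5.08 CPM, against 0.420, 1.93 and 1.71 CPM in M202. The log2 difference was 1.97 ± 0.53 (SE; edgeR adjusted p = 0.0160). This call was lost without replicate 1 of M202 (log2 difference 1.59, adjusted p = 0.168) or without replicate 1 of M202(Sub1) (1.72, adjusted p = 0.102). AOX1a was lower in non-elongating leaves of M202(Sub1) at day 1, with 0.797, 1.63 and 0 CPM, against 4.45, 2.71 and 3.75 CPM in M202. The log2 difference was -2.18 ± 0.67 (edgeR adjusted p = 0.0183), and the adjusted p rose above 0.05 without M202 replicate 1 (0.0652), M202(Sub1) replicate 1 (0.0572) or M202(Sub1) replicate 3 (0.148).

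The share of all tested genes that differed between genotypes was 5.18%, 20.2%, 14.5% and 20.3% at days 0, 1, 3 and 6 in elongating leaves, and 2.74%, 15%, 13.8% and 15.1% in non-elongating leaves. Of the other AOX1c values, the differences in non-elongating leaves at day 1 (-1.77 ± 0.88) and day 3 (-1.30 ± 0.61) had an unadjusted p under 0.05 and did not pass after adjustment.

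Between leaf types, AOX1c was lower in elongating leaves of M202 at day 0, with 0.420, 1.93 and 1.71 CPM, against 9.05, 7.57 and 5.78 CPM in non-elongating leaves. The log2 difference was -2.40 ± 0.53 (SE; edgeR adjusted p = 0.000277), a level 5.28-fold lower. It was also lower at day 6, with 0.509, 0.461 and 1.94 CPM in elongating and 3.70, 3.36 and 2.07 CPM in non-elongating leaves of M202 (log2 difference -1.71 ± 0.55, edgeR adjusted p = 0.0174). The day 6 call was lost without replicate 1 of the non-elongating leaves (adjusted p = 0.0709), without replicate 1 of the elongating leaves (0.119), without replicate 2 of the elongating leaves (0.106), and in a fit of those groups alone (0.0587). In M202(Sub1) at day 0 the AOX1c difference between leaf types was -0.64 ± 0.45 and was not called.

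AOX1a was lower in elongating leaves of M202 at day 1, with 0.473, 0.576 and 0 CPM, against 4.45, 2.71 and 3.75 CPM in non-elongating leaves. The log2 difference was -3.27 ± 0.71 (SE; edgeR adjusted p = 0.000152), a level 9.63-fold lower. The matching difference in M202(Sub1), -2.27 ± 1.03, was not called, but passed without replicate 3 of the non-elongating leaves at day 1 (log2 difference -2.86, adjusted p = 0.0274). Leaf type was called for AOX1a in 1 of 8 comparisons and for AOX1c in 2 of 8.

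Leaf type differences were widespread: 29.6%, 29.5%, 21.3% and 17.7% of tested genes were called in M202(Sub1) at days 0, 1, 3 and 6, and 29.3%, 40.3%, 33.7% and 22.9% in M202. From day 1 to 3 the share of genes called was 13.1% in elongating and 16.9% in non-elongating leaves of M202(Sub1), and 22.2% and 16.2% in those of M202. From day 3 to 6 it was 13.6% in elongating and 7.42% in non-elongating leaves of M202(Sub1), and 28.1% and 29% in those of M202. Against these shares, AOX1a was called in 1 of 8 steps between submerged days.

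**Figure D3:**
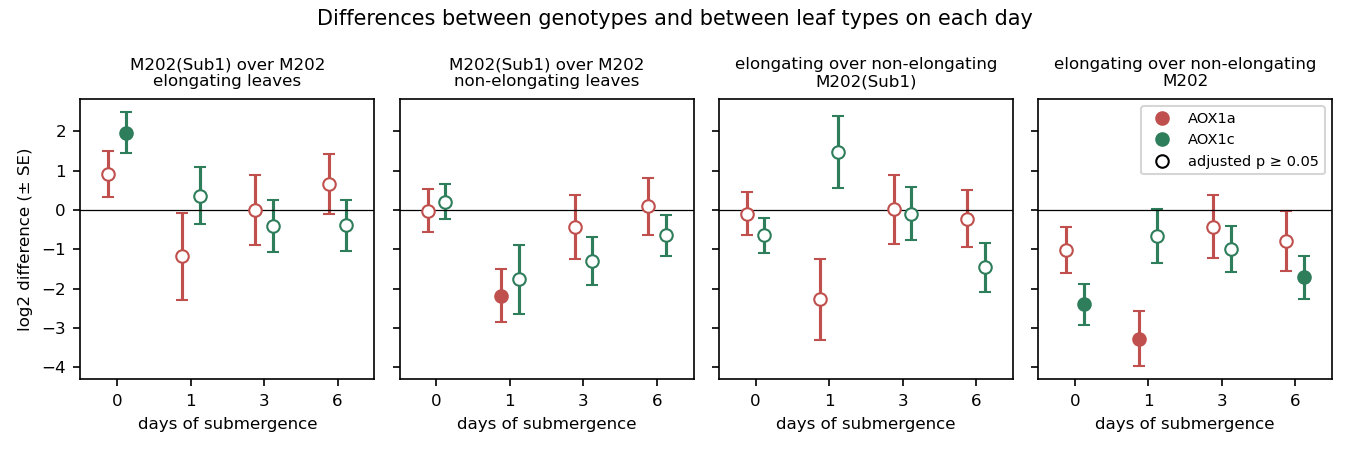
Log2 differences of AOX1a and AOX1c (vertical axes, bars ± SE) between genotypes (M202(Sub1) over M202) and between leaf types (elongating over non-elongating) at each day; filled points had an adjusted p under 0.05. AOX1c stands above 0 between genotypes in elongating leaves at day 0 (1.97), and AOX1a stands lowest between leaf types of M202 at day 1 (-3.27).

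Whether the response to submergence differed between genotypes or leaf types was tested by the difference of the log2 changes. By edgeR none of the 6 genotype and none of the 6 leaf type differences was called for either member. At an unadjusted p under 0.05 there were 1 genotype and 1 leaf type difference for AOX1a, and 4 and 1 for AOX1c. The AOX1a genotype difference was in non-elongating leaves at day 1. Its change there was more negative in M202(Sub1) than in M202 by -2.16 ± 0.87 (SE, edgeR adjusted p = 0.150). The share of all genes called for genotype was 11%, 5.68% and 6.29% at days 1, 3 and 6 in elongating leaves and 5.49%, 5.53% and 6.29% in non-elongating leaves. For leaf type it was 13.9%, 13.6% and 14% in M202(Sub1) and 15.7%, 13.7% and 10.4% in M202.

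The AOX1c change in elongating leaves was more negative in M202(Sub1) than in M202 by -2.37 ± 0.86 (SE; edgeR adjusted p = 0.0974) at day 3 and -2.36 ± 0.85 (adjusted p = 0.0879) at day 6. DESeq2 called both, at -2.40 with adjusted p = 0.0369 and 0.0363. Both share the day 0 libraries, where AOX1c was already higher in M202(Sub1), while at days 3 and 6 the genotypes differed by -0.41 ± 0.66 and -0.39 ± 0.65. The AOX1a change in M202 at day 1 was more negative in elongating than in non-elongating leaves by -2.25 ± 0.93 (edgeR adjusted p = 0.0951), which DESeq2 (-2.34, adjusted p = 0.0371) and edgeR on those groups alone (-2.28, adjusted p = 0.0367) called.

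The balance of AOX1a to AOX1c within a library needs no scaling between libraries. Its mean log2 ratio was higher at day 1 than at day 0 in non-elongating leaves of both genotypes, with 0.87 ± 0.88 at day 1, against -1.01 ± 0.39 at day 0, in M202(Sub1) and 2.12 ± 0.87 at day 1, against -0.82 ± 0.51 at day 0, in M202 (SD, n = 3). It was lower at day 1 in elongating leaves of both, with -2.05 ± 0.66 at day 1, against -0.49 ± 0.49 at day 0, in M202(Sub1) and -0.85 ± 1.60 at day 1, against 0.77 ± 0.86 at day 0, in M202. These ratios rest on few counts, with 0.5 added to each. Replicate 3 of M202(Sub1) non-elongating leaves at day 1 had 0 counts of both genes, so its ratio came from the added 0.5 alone. In elongating leaves of M202(Sub1) AOX1a had 0, 1 and 2 counts at day 1. The difference between leaf types in this ratio was not tested. Averaged over the 4 genotype and leaf combinations, the change from day 0 was 0.41 at day 1, -0.65 at day 3 and -0.54 at day 6 (exact two-sided permutation test within combinations, adjusted p = 0.472, 0.239 and 0.239 over the 3 days), and none was called. The day 1 average pools changes of opposite sign in the leaf types.

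The alternative NAD(P)H dehydrogenases, which feed electrons to the same ubiquinone pool, were followed as a list of 6 identifiers written from general knowledge. The gene names available here do not pair them with symbols. Of the 6, 5 were tested, and 4 or 5 of these fell and none rose in each of the 12 submergence comparisons (edgeR, adjusted p under 0.05). The list's median log2 change was between -1.94 and -0.46, against -0.024 to 0.0598 over all tested genes. OS05G0331200, OS01G0830100 and OS06G0214900 each fell in 12 of 12, OS06G0684000 in 11 and OS08G0141400 in 8. OS07G0564500 was not tested, at 0.958 CPM or less in every library.

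OS05G0331200 had the largest fitted fall of the 5. In elongating leaves at day 3 it had no counts in M202(Sub1) or M202. Its level was at least 48.4-fold and 46.8-fold lower than in the day 0 groups, whose 134 and 132 counts were taken as exact. With counts halved to 67 and 66 these bounds were 24.2-fold and 23.4-fold. In non-elongating leaves of M202(Sub1) it had 2 counts at day 1 and 160 at day 0, a ratio of 0.0157 (exact 95% interval 0.00189 to 0.0578, or 0.000394 to 0.0903 with counts halved). In those of M202, where AOX1a was not called at day 1, it had 18 counts at day 1 and 182 at day 0, a ratio of 0.0837 (0.0485 to 0.136, or 0.0371 to 0.166 with counts halved). The fitted fall of OS01G0830100 was smaller at each later day in all 4 genotype and leaf combinations, with a log2 change of -0.46 in elongating leaves of M202(Sub1) at day 6 as its smallest and -2.38 in those of M202 at day 1 as its largest.

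**Figure D4:**
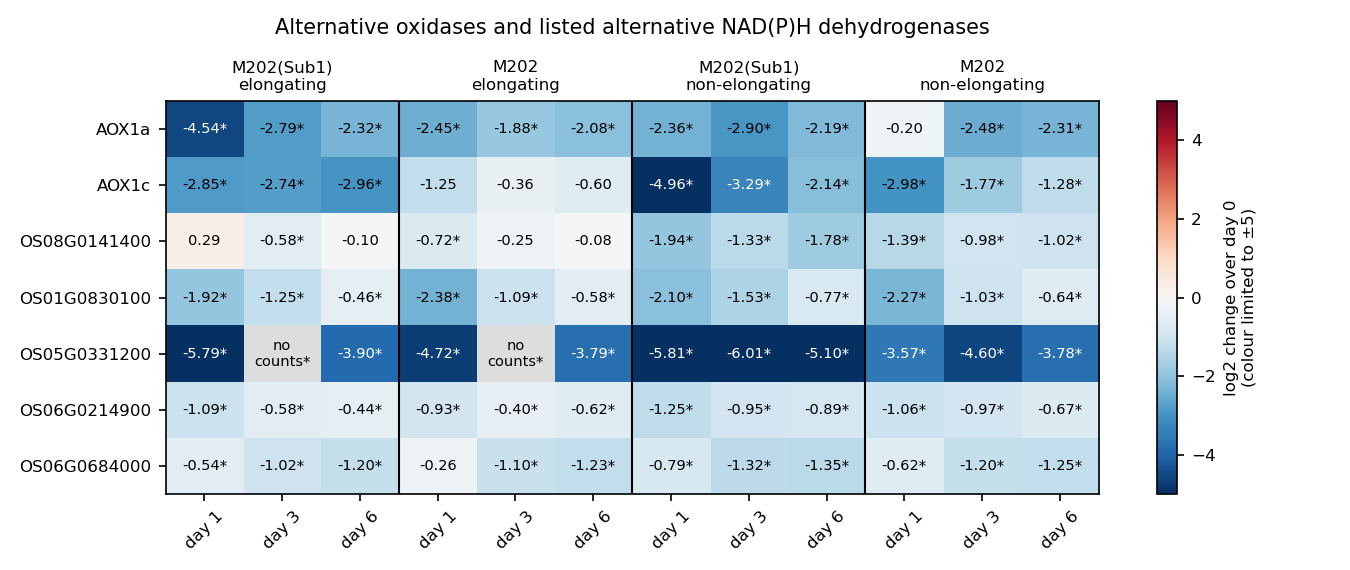
Log2 change from day 0 for AOX1a, AOX1c and the 5 tested identifiers of the alternative NAD(P)H dehydrogenase list (rows) in the 12 submergence comparisons (columns); colour runs from blue (lower under water) to red, stars mark adjusted p under 0.05, and grey cells had no counts under water, so no fold is drawn. The rows of OS05G0331200, OS01G0830100 and OS06G0214900 are starred throughout, and OS08G0141400 is unstarred in 4 columns.

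The cytochrome pathway and respiratory complexes, listed in the same way as 11 identifiers of which 8 were tested, fell more often than they rose. Over the 12 comparisons there were 40 calls lower and 12 higher. The list's median log2 change was between -0.722 and 0.0192, against -0.024 to 0.0598 over all tested genes. In a given comparison 0 to 5 fell and 0 to 2 rose. OS12G0561000 rose in 8 of 12 comparisons, by up to 0.88 on the log2 scale. OS07G0134800 rose in 4. OS02G0520800 fell in 10, by at most 1.07. OS05G0420600 and OS03G0390400 fell in 8 each, and OS08G0120000 and OS03G0713400 in 7 each. OS04G0398500 was never called. Of 2 identifiers for other terminal oxidases 1 was tested, and OS04G0668900 fell in 5 of 12. The other, OS02G0318100, was listed as a further alternative oxidase, AOX1d. It was at 1.41 CPM or less in every library. Of 2 identifiers listed for mitochondrial protection, OS05G0323900 rose in 11, with log2 changes up to 2.42, and OS11G0707800 fell in 10. Over all genes 23.7% to 28.7% fell and 25.8% to 27.7% rose per comparison.

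Across the 16 group means the AOX1a and AOX1c patterns had r = 0.718 with each other. Among 11397 genes averaging at least 10 CPM, OS01G0559600 was closest to AOX1a (r = 0.936) and OS04G0224900 to AOX1c (r = 0.920). Among all 21452 other tested genes, OS05G0331200 ranked 47 by likeness to AOX1a (r = 0.869) and 857 by likeness to AOX1c (r = 0.758). The other 4 tested identifiers of its list ranked 3456, 3795, 5173 and 7045 for AOX1a. In the same order they ranked 2618, 927, 1887 and 8880 for AOX1c. Genes outside that list were as close or closer to AOX1c. OS02G0520800, of the cytochrome list, ranked 239 for AOX1c (r = 0.825) and 410 for AOX1a (r = 0.805). The leaf blade marker OS11G0707000 ranked 115 for AOX1c (r = 0.847) and 3068 for AOX1a (r = 0.607). These correlations describe group means that share the fall at submergence and carry no test.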

How the data were processed

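Total RNA of 48 leaf libraries was sequenced as read pairs, per the labels' protocols. The submitters' processing notes name STAR, featureCounts, DESeq2 and the genome IRGSP-1.0, with no versions. The deposited values are whole-number read counts per gene, not normalized. Strand use and the treatment of read pairs are not given in the sources used here.

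Counts were tested with edgeR 4.0.16 (R 4.3.3): filterByExpr (minimum count 10, minimum total 15), TMM scaling, 1 model of 16 groups with 32 residual degrees of freedom, robust quasi-likelihood F tests of 48 comparisons, and Benjamini-Hochberg adjustment over 21453 genes at 0.05. CPM used TMM-scaled library sizes. A standard error is the log2 change divided by the square root of F. Exact intervals of count ratios are 95% conditional binomial intervals. The ratio of AOX1a to AOX1c added 0.5 to each count. Scripts were tested on simulated data. Alternatives were DESeq2 1.42.0, other scaling factors, no filter, halved counts, a replicate block, the compared groups alone, and each library left out. AOX1a was matched by symbol and chromosome to a RefSeq gene table (assembly ASM3414082v1); that table pairs none of the identifiers, and sequences were not analysed here. Members, lists and tests were chosen with earlier results of these data known. Genes named beside the members came from the lists or the markers or were the closest in pattern, with no condition on a symbol.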

Additional observations from a re-analysis of the deposited data

How the results depend on the processing

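The members' calls held under most settings. With 1 library left out at a time, AOX1a was called lower in 10 to 11 submergence comparisons and AOX1c in 8 to 10. In fits of the compared groups alone AOX1a was called in 10, and no AOX1a call was lost where it could be fitted. Leaving out 1 library gave 0 to 1 genotype calls, 1 to 2 leaf type calls and 0 to 1 day step calls for AOX1a, and 0 to 1 genotype calls and 1 to 2 leaf type calls for AOX1c; the libraries are named beside each result above. DESeq2 called 1 leaf type difference in the response of AOX1a and 2 genotype differences in that of AOX1c. Fits of the compared groups alone called 1 leaf type difference in the response of AOX1a and 1 leaf type difference in level of AOX1c; 33 of 96 member values could not be fitted there, because the member did not pass the filter in those libraries. The cause of the other differences between settings was not tested. In those fits the number of genes called over the whole table was 1367 in place of 3248 (genotype, non-elongating, day 6), 2831 in place of 4909 (leaf type, M202, day 6), 3549 in place of 6227 (M202 non-elongating, day 6 over day 3), 512 in place of 1350 (genotype difference in response, non-elongating, day 6) and 1111 in place of 2232 (leaf type difference in response, M202, day 6).

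Without replicate 2 of M202 non-elongating leaves at day 6, the least correlated library, the day 6 change of AOX1a in those leaves was -2.01 (adjusted p = 0.0130) and that of AOX1c -1.32 (adjusted p = 0.0348). With the replicate number as a block, AOX1a was called lower in 11 and AOX1c in 9 submergence comparisons, and the block changed no count of calls for either member. The numbers were not taken to pair the samples: deviations of same-numbered libraries correlated at -0.151 to 0.157, all 3 pairs were over 0.1 in 1 of 36 comparisons, and all 3 samples were closest to their own number in 4 of 36. With the block, the exact permutation test of the AOX1a to AOX1c ratio gave adjusted p = 0.547, 0.270 and 0.270.

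Every value that changed sign was uncalled as reported (28 results, log2 values -0.54 to 0.71). The AOX1a genotype difference in elongating leaves at day 3 (0.0063) became -0.0068 with RLE factors, -0.0067 with the replicate block, -0.0036 with halved counts and -0.0071 with DESeq2. The AOX1a leaf type difference in M202(Sub1) at day 3 (0.0184) became -0.0051 with RLE factors, -0.0023 with upper-quartile factors, -0.017 with halved counts and -0.0054 with DESeq2. Left-out libraries gave these lowest and highest values. The AOX1a difference between genotypes ranged over -0.54 to 0.75 (elongating, day 3), -0.23 to 0.22 (non-elongating, day 0), -1.02 to 0.28 (non-elongating, day 3) and -0.68 to 0.46 (non-elongating, day 6). The AOX1a difference between leaf types ranged over -0.31 to 0.16 (M202(Sub1), day 0), -0.49 to 0.61 (M202(Sub1), day 3), -0.59 to 0.56 (M202(Sub1), day 6) and -1.16 to 0.30 (M202, day 3). The AOX1a step between days ranged over -1.14 to 0.48 (M202(Sub1), non-elongating, day 3 over day 1), -0.059 to 1.28 (M202(Sub1), non-elongating, day 6 over day 3), -0.17 to 1.13 (M202, elongating, day 3 over day 1), -0.76 to 0.56 (M202, elongating, day 6 over day 3) and -0.13 to 0.90 (M202, non-elongating, day 6 over day 3). The AOX1a genotype difference in response ranged over -0.64 to 0.30 (elongating, day 6), -1.02 to 0.28 (non-elongating, day 3) and -0.68 to 0.46 (non-elongating, day 6). The AOX1a leaf type difference in response ranged over -0.41 to 0.69 (M202(Sub1), day 3), -0.50 to 0.65 (M202(Sub1), day 6), -0.16 to 1.29 (M202, day 3) and -0.33 to 0.54 (M202, day 6). The AOX1c difference between genotypes ranged over -0.065 to 1.28 (elongating, day 1), -0.73 to 0.52 (elongating, day 6) and -0.24 to 0.42 (non-elongating, day 0). The AOX1c difference between leaf types ranged over -0.62 to 0.79 (M202(Sub1), day 3). The AOX1c step between days ranged over -0.19 to 0.56 (M202(Sub1), elongating, day 3 over day 1), -0.52 to 0.092 (M202(Sub1), elongating, day 6 over day 3) and -1.15 to 0.10 (M202, elongating, day 6 over day 3). The AOX1c leaf type difference in response ranged over -0.25 to 1.00 (M202, day 6).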
